A study of Schizosaccharomyces pombe with 4 samples.

Results

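The genes at the outer edges of chromosome III of the fission yeast Schizosaccharomyces pombe were examined, left and right end apart. They are the genes with an SPCC or SPCP identifier whose annotated transcript lay wholly in the outer 100 kb of the chromosome sequence on either side. Ends and distances are throughout those of the assembled sequence. On chromosome III its first and last bases lie in annotated ribosomal RNA (SPRRNA.42 and SPRRNA.45). Distances to the physical chromosome ends are therefore not known here. In all, 63 of 7092 genes in the files met this, 29 at the left end and 34 at the right end, and 1 more protein-coding gene of the left window was left out by the rule. The rule used position and identifiers, not expression. Of the 63, 62 are annotated as protein coding and 1 (SPCP20C8.03) as a pseudogene in RefSeq.

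Chromosome III is the smallest fission yeast chromosome and carries the arrays of ribosomal RNA genes at both of its tips, so that its most distal single-copy genes lie beside ribosomal DNA. On chromosomes I and II the matching places are held by subtelomeric repeats. Genes close to a telomere or to heterochromatin are often weakly transcribed in yeasts, and families of transporters and of uncharacterised proteins are common there. Loz1 is a zinc finger protein of fission yeast that represses genes of zinc uptake and some others when zinc is plentiful.

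RNA was sequenced from 2 libraries of a strain with the genotype label loz1 delta and from 2 libraries of wild type. Cells of both genotypes were grown in EMM, a minimal medium, that was zinc-limited and then given zinc (100 mM as the labels write it, a unit that was not checked). They were taken at an OD600 of about 6.0. No label gives mating type, other alleles, a clone number or whether libraries came from separate cultures, so a p-value here measures the spread between these libraries, which may be technical.

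Values are FPKM, fragments scaled to the length of the transcript and to the sequenced total, so levels of different genes are compared per length. The confidence bounds beside each value imply a depth of about 1.86e+07 and 1.99e+07 fragments for the libraries labelled loz1 deletion, against 1.75e+07 and 1.76e+07 for wild type. The loz1 transcript itself went against its label: the labelled deletion libraries had 56.4 and 56.0 FPKM of it and the wild-type libraries 6.87 and 5.81 FPKM. Genes that Loz1 is known to repress were higher in the labelled deletion libraries. The zinc importer gene zrt1 had 977 and 964 FPKM in the labelled deletion libraries, against 17.8 and 31.0 FPKM in wild type. adh4, an alcohol dehydrogenase gene, had 3320 and 3602 FPKM against 23.3 and 32.8 FPKM in wild type. The labels do not say which bases were deleted, and every direction below is given for the libraries as labelled. The median gap between replicates, in log2 units, was 0.09 for the labelled deletion pair and 0.24 for the wild-type pair. Transcripts of M mating-type cells were lower in the labelled deletion libraries (5 of 5 listed genes called lower, summed 159 and 151 FPKM against 4680 and 17900 FPKM in wild type). Of 3 P-cell genes, map2 and map3 were called higher. The third, map1, was not called and had 24.97 and 26.05 FPKM against 27.25 and 35.8 FPKM in wild type. None of 6 spore genes was called. In the same fit, described below, 11.9% of all genes were called higher and 4.37% lower. The part that mating type has in the results below was not tested. In RNA from whole cultures, fewer cells of a type and less RNA per cell cannot be told apart.

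Of the 63 genes 62 were tested. SPCC569.04, an uncharacterised gene that lies wholly opposite the transcript of SPCC569.05c, was listed at or near 0 in every library and was not. With limma on log2(FPKM + 1) and Benjamini-Hochberg adjustment over 6315 genes, called at an adjusted p under 0.05, 11 chromosome III end genes were higher in the labelled deletion libraries and 3 were lower. That is 17.7% and 4.84% of those tested, beside 11.9% and 4.37% of all genes. The left end held 5 higher genes and 1 lower gene of 29, and the right end 6 higher and 2 lower of 33. Their median log2 fold change was 0.13, equal to that of all genes, with 0.02 at the left end and 0.17 at the right end. In most members the difference was small: 40 of 62 lay within 0.5 of no change on the log2 scale. The labelled deletion libraries both lay above both wild-type libraries in 29 members (46.8%, beside 44.7% of all genes) and below both in 18 (29%, beside 21.6%).

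Median-ratio rescaling removes the shift of 0.13 in the median of all genes. After it 7 members were higher (11.3%, beside 6.78% of all genes) and 4 were lower (6.45%, beside 5.11%). SPCC757.05c, hom2, pcs60 and SPCC70.10 then missed the threshold, and SPCC569.01c passed it as lower. With 1 labelled deletion library left out, hardly any call remained. None of the 14 passed without replicate 1 (adjusted p between 0.0501 and 0.378). Without replicate 2 SPCC569.05c alone passed (0.0499, with the others up to 0.41). All 14 passed without either wild-type library, and no fold change shifted by more than 0.466 in any of the 4 fits.

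**Figure D1:**
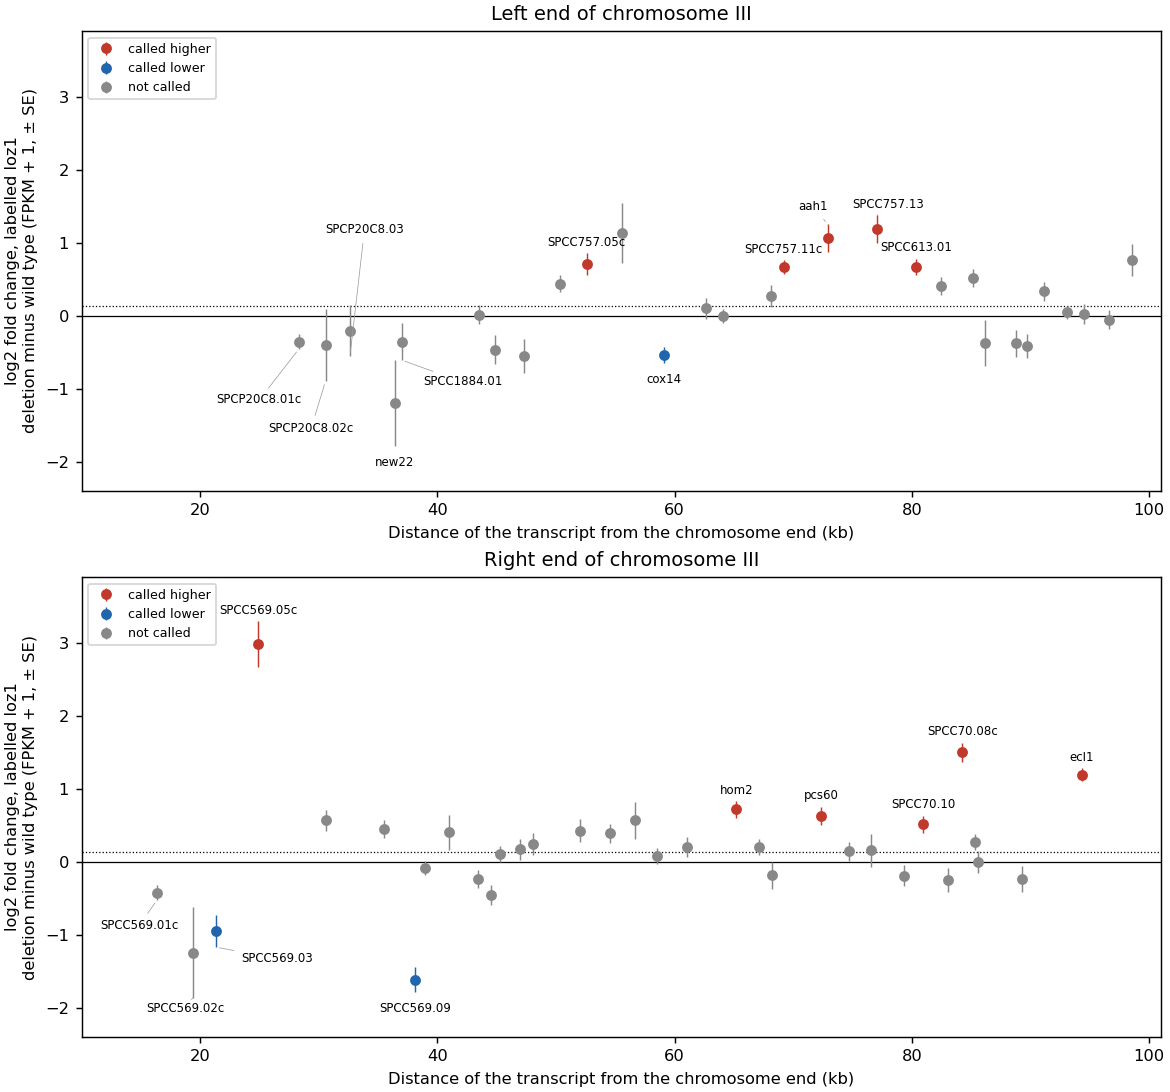
Log2 fold change of each tested member, libraries labelled loz1 deletion minus wild type on log2(FPKM + 1), against its distance from the chromosome end in kb. Points are limma estimates from 2 libraries a group, bars are standard errors, colours mark calls, and the dotted line is the median of all genes (0.13). The 5 outermost left genes lie below 0, SPCC569.05c at the right stands at 2.99, and SPCC569.09 at -1.62.

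The median level was low at the left edge and not among tested genes of the right edge. The outermost left gene, SPCP20C8.01c, was not low, with means of 112 FPKM in the labelled deletion libraries and 144 FPKM in wild type. The 5 left genes within 40 kb of the end had a median level of 1.95 FPKM in the labelled deletion libraries, against 3.34 FPKM in wild type. The 8 tested right genes within the same distance had medians of 78.1 FPKM in the labelled deletion libraries, against 90 FPKM in wild type. The untested SPCC569.04, listed at or near 0, also lies there and is not counted in these medians. Genes of the chromosome III interior had medians of 36.8 FPKM in the labelled deletion libraries, against 32.3 FPKM in wild type. All 6 tested members with a mean under 5 FPKM belonged to the left end. They were SPCP20C8.02c, SPCP20C8.03, new22, SPCC1884.01, SPCC757.06 and rng3, the last a chaperone gene for myosin. At the other extreme, 7 members averaged over 500 FPKM, from SPCC70.08c up to the ribosomal protein gene rpl35 and SPCC569.09.

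**Figure D2:**
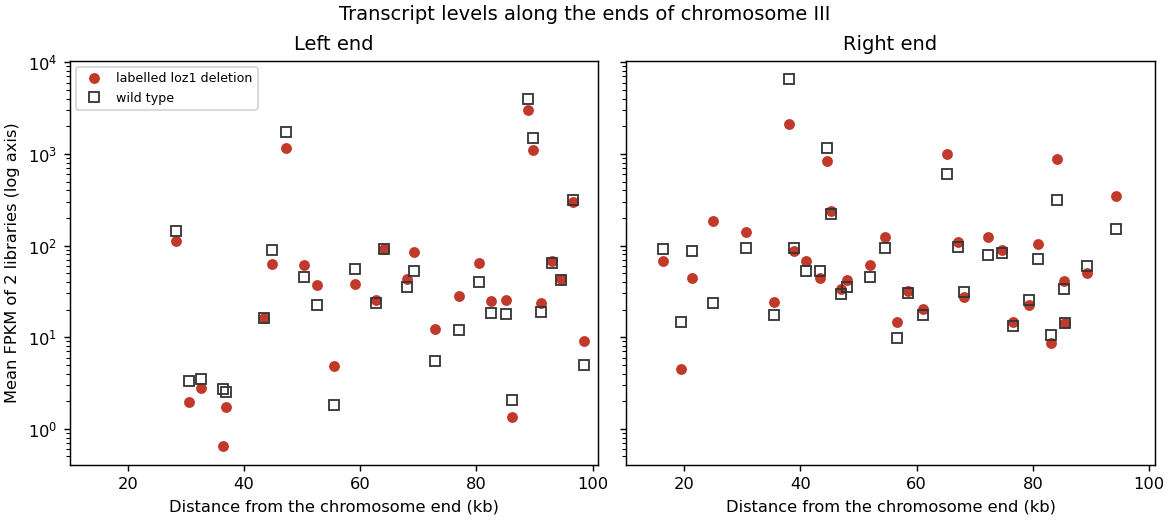
Mean FPKM of the 2 libraries of each group (log axis) for every tested member against the distance from the chromosome end in kb, left and right end in separate panels. Filled circles are libraries labelled loz1 deletion and open squares are wild type. Left genes within 40 kb sit near 1 to 5 FPKM except the outermost, SPCP20C8.01c, at 112 FPKM in labelled deletion libraries and 144 FPKM in wild type.

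The outermost genes of both ends are copies of one another in mirrored order. SPCP20C8.01c, the leftmost (III:28298-29423, minus strand, 1 exon, 28.3 kb from the left end), and SPCC569.01c, the rightmost (III:2434691-2436530, plus strand, 1 exon, 16.4 kb from the right end), both encode uncharacterised proteins. In the RefSeq sequence (build ASM294v3) they aligned over all 1126 bases of the left gene with no gap and 99.6% identity. Counted from base 1 at the annotated start, the 5 differences from the left to the right copy are G240A, A415G, A465G, A743C and A1030T. A743C falls in the last codon of the left gene's 744-base coding sequence, which ends in taa there, and the coding sequence of the right copy is 972 bases long. The last 60 coding bases of the left copy and the same positions of the right copy (685 to 744) are shown because they hold that difference, in capitals, at III:28680-28739 on the minus strand and III:2435375-2435434 on the plus strand.
SPCP20C8.01c: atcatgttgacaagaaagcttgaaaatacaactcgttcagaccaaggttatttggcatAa
SPCC569.01c: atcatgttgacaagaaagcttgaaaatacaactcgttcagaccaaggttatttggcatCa

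One step inward the likeness continued. SPCP20C8.02c and SPCC569.02c aligned over 928 bases at 93.6% identity. The left pseudogene SPCP20C8.03 and the right gene SPCC569.03 aligned over a longest stretch of 379 bases at 95.3% identity. A 100-base stretch that occurs more than once in the genome starts at 64.5% of positions of SPCP20C8.01c and at 74.2% of SPCC569.01c. Not all of this is shared between these copies. Of SPCP20C8.01c positions 56.5% were shared with SPCC569.01c and 13.9% with SPBC337.02c, which is not an end gene of chromosome III. Of SPCC569.01c positions 33.3% were shared with SPCP20C8.01c. A further match, at 40.8%, was to chromosome III sequence that no annotated transcript holds whole. How reads with several matches were treated is not given in the sources used here. Reads of these copies therefore cannot be assigned to 1 place, and their values are uncertain. The shares with any place were 9.44% and 11.1% for SPCP20C8.02c and SPCC569.02c, and 0.894% and 3.15% for SPCP20C8.03 and SPCC569.03.

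Both outermost copies had lower values in the labelled deletion libraries. SPCP20C8.01c had 113 and 112 FPKM in the labelled deletion libraries, against 136 and 153 FPKM in wild type, a log2 difference of -0.36 ± 0.10 (SE; limma adjusted p = 0.0753). SPCC569.01c had 70.7 and 66.5 FPKM against 88.2 and 96.7 FPKM in wild type, a log2 difference of -0.42 ± 0.10 (limma adjusted p = 0.0512). Both labelled deletion libraries lay below both wild-type libraries for either gene, as in 21.6% of all genes. Neither gene passed the threshold as deposited. After rescaling SPCC569.01c was lower by -0.57 (limma adjusted p = 0.0391).

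The second pair differed mainly in 1 wild-type library. SPCP20C8.02c had 2.12 and 1.78 FPKM in the labelled deletion libraries, against 1.44 and 5.23 FPKM in wild type, so the groups overlapped. SPCC569.02c had 3.95 and 4.95 FPKM in the labelled deletion libraries, against 5.73 and 23.6 FPKM in wild type, a log2 difference of -1.25 ± 0.62 (limma adjusted p = 0.219). In both genes wild-type replicate 2 was the highest library. The non-coding transcript SPNCRNA.1298 lies opposite 68.7% of SPCC569.02c. It had 2.19 and 0.742 FPKM in the labelled deletion libraries, against 18.8 and 12.3 FPKM in wild type, and was called lower (-2.78 ± 0.38, limma adjusted p = 0.0151). With no stated strand setting, reads of the gene and of this partner cannot be told apart. SPNCRNA.1298 was picked after its values were seen.

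The third pair differed in level. SPCC569.03 (III:2429987-2431575, minus strand, 2 exons), which encodes an uncharacterised protein, fell at the right end. It had 44.4 and 43.0 FPKM in the labelled deletion libraries, against 107 and 68.6 FPKM in wild type, a log2 change of -0.95 ± 0.22 (limma adjusted p = 0.0476). Its pseudogene relative at the left end, SPCP20C8.03, had 2.68 and 2.83 FPKM in the labelled deletion libraries, against 2.25 and 4.77 FPKM in wild type, with overlapping groups. Next inward on the left, new22, a short gene of 237 bases, had listed values of 1.29 and 0 FPKM in the labelled deletion libraries, against 1.37 and 4.09 FPKM in wild type. The bounds of those values imply 1, 0, 1 and 3 fragments in the same order, too few to compare. SPCC1884.01 had 1.86 and 1.65 FPKM in the labelled deletion libraries, against 2.60 and 2.44 FPKM in wild type (limma adjusted p = 0.364), and SPNCRNA.1096 lies opposite 65.0% of it.

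SPCC569.05c had the largest change of all 62 tested members. It encodes a protein annotated as a spermidine family transporter, spermidine being a polyamine of all living cells, and lies 24.9 kb from the right end (III:2423807-2427995, plus strand, 1 exon). It had 188 and 183 FPKM in the labelled deletion libraries, against 31.5 and 16.0 FPKM in wild type. Its log2 fold change was 2.99 ± 0.31 (limma adjusted p = 0.00761), and the groups were far apart. It remained called in all 8 alternatives that kept the 4 libraries. Along with it, meu19, a non-coding RNA gene farther inward, had 205 and 172 FPKM against 107 and 89.1 FPKM in wild type (0.94 ± 0.14, limma adjusted p = 0.0195). The non-coding transcript SPNCRNA.1297, which runs on the same strand across the annotated start of SPCC569.05c, had 16.9 and 17.2 FPKM against 10.7 and 8.90 FPKM in wild type (0.74 ± 0.16, limma adjusted p = 0.0415). These neighbours were also picked after their values were seen.

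The 250 bases before the RefSeq start of SPCC569.05c (ASM294v3, III:2423534-2423783, plus strand) hold 1 match to the core of the Loz1 response element, searched as GNAGATC or GNCGATC on both strands. It is printed in capitals and lies 86 to 80 bases before the start. The sequence is shown because this gene changed most among the end genes. SPNCRNA.1297 is annotated across this window.
SPCC569.05c: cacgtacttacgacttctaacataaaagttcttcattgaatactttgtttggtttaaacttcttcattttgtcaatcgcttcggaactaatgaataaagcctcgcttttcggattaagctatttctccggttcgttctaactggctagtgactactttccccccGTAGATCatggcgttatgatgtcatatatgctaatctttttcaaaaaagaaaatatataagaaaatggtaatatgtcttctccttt

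The same core was found before 4 of 62 protein-coding end genes (6.45%) and before 389 of 5105 protein-coding genes (7.62%). The other 3 matches were before aah1, rpl35 and qcr2, of which only aah1 was called. A match is a run of letters and not a shown binding site, and the share in the end genes was near that of all genes.

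Facing inward from SPCC569.05c, 2 more right genes had higher values without passing the threshold. SPCC569.06, which encodes an uncharacterised protein, had 148 and 131 FPKM in the labelled deletion libraries, against 105 and 84.0 FPKM in wild type (0.57 ± 0.14, limma adjusted p = 0.0583). SPCC569.07, an aromatic aminotransferase gene, had 24.8 and 23.5 FPKM against 17.8 and 16.97 FPKM in wild type (0.45 ± 0.12, limma adjusted p = 0.0682). For both, each labelled deletion library lay above each wild-type library, as in 44.7% of all genes.

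SPCC569.09 fell the most, and it was also the most abundant member in wild type. It encodes an uncharacterised protein (III:2413905-2414790, plus strand, 2 exons, 38.1 kb from the right end). It had 2079.7 and 2160.5 FPKM in the labelled deletion libraries, against 6301 and 6698 FPKM in wild type, a log2 change of -1.62 ± 0.18 (limma adjusted p = 0.00884). The change remained called in all 8 alternatives with 4 libraries. Its deposited transcript reaches beyond the RefSeq gene for 39.4% of its length, and 8.07% of it is overlapped by ade5. ade5, which encodes an enzyme of purine synthesis, had 86.3 and 88.8 FPKM against 89.4 and 97.2 FPKM in wild type (-0.09 ± 0.10, limma adjusted p = 0.529).

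**Figure D3:**
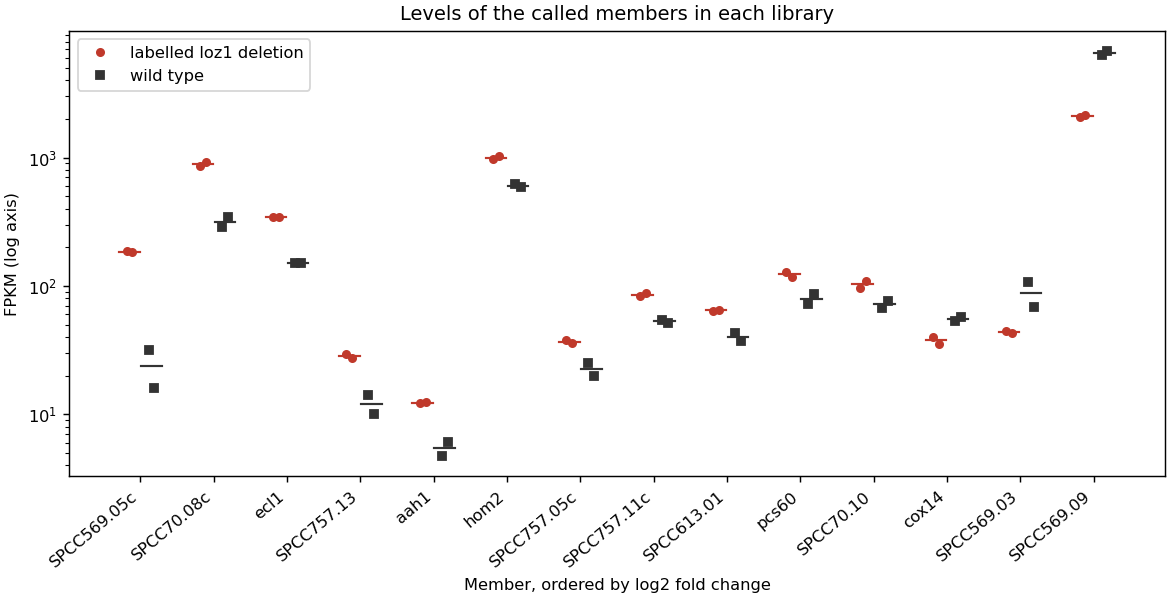
FPKM (log axis) of the 14 called members in each library, ordered by log2 fold change. Circles are the 2 libraries labelled loz1 deletion, squares the 2 wild-type libraries, and short lines the group means. The groups do not overlap in any of the 14, which were picked by calls on these same libraries, so this adds no support. Wild-type libraries of SPCC569.05c and SPCC569.03 are spread the most.

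Of the 5 higher genes at the left end, 4 start 69.2 to 80.4 kb from the end and encode 3 membrane transporters and a cell-surface enzyme. The fifth, SPCC757.05c, starts 52.6 kb from the end and encodes a peptidase. SPCC757.11c (transporter, III:69195-71282, minus strand) had 82.7 and 87.4 FPKM in the labelled deletion libraries, against 54.3 and 51.8 FPKM in wild type, a log2 change of 0.67 ± 0.10 (limma adjusted p = 0.0168). SPCC757.13 (dipeptide transporter, III:77080-79816, plus strand) had 29.3 and 27.4 FPKM against 14.1 and 10.04 FPKM in wild type, a log2 change of 1.19 ± 0.19 (limma adjusted p = 0.0218). SPCC613.01 (transporter, III:80382-82220, plus strand) had 64.2 and 64.6 FPKM against 43.3 and 37.3 FPKM in wild type, a log2 change of 0.67 ± 0.11 (limma adjusted p = 0.0262). In each of these genes both labelled deletion libraries were above both wild-type libraries, as in 44.7% of all genes. SPCC613.02, the next gene and a relative of SPCC613.01 (76.2% identity over 1446 aligned bases), had 25.3 and 24.2 FPKM against 19.3 and 17.6 FPKM in wild type. It did not pass (0.41 ± 0.12, limma adjusted p = 0.0879).

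Overlapping transcripts bear on SPCC757.13. SPNCRNA.1101 lies opposite 63.5% of it and was itself called higher, with 4.09 and 7.83 FPKM in the labelled deletion libraries, against values near 0 in wild type. SPNCRNA.454 shares its strand over 33.3% of it and was called lower, with 6.61 and 3.29 FPKM against 14.3 and 20.9 FPKM in wild type (-1.68 ± 0.35, limma adjusted p = 0.0385). Reads in the shared stretches cannot be assigned to 1 transcript.

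Between these transporters lies aah1 (SPCC757.12, III:72916-75522, plus strand, 1 exon), which encodes a GPI-anchored glycosyl hydrolase of the alpha-amylase type. It had 12.3 and 12.5 FPKM in the labelled deletion libraries, against 4.73 and 6.13 FPKM in wild type, a log2 change of 1.06 ± 0.19 (limma adjusted p = 0.0283). No annotated transcript overlaps it. Its promoter window (ASM294v3, III:72626-72875, plus strand) is printed for comparison with that of SPCC569.05c. It holds a GNCGATC match on the opposite strand, so the capitals show its complement, 102 to 96 bases before the start.
aah1: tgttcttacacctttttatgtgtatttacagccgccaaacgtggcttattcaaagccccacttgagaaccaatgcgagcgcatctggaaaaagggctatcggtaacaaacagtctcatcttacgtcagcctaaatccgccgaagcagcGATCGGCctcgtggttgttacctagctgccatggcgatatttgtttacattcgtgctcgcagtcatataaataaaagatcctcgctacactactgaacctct

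The run of positive differences in this stretch went from vph2 through SPCC757.11c, aah1, SPCC757.13, SPCC613.01 and SPCC613.02 to SPCC613.03, which are 7 neighbouring members in a row. vph2, which encodes an assembly factor of the vacuolar proton pump, had 42.7 and 42.9 FPKM against 40.3 and 31.2 FPKM in wild type (0.27 ± 0.15, limma adjusted p = 0.268). SPCC613.03, annotated as a calcium ion binding protein, had 26.4 and 25.03 FPKM against 18.4 and 17.04 FPKM in wild type (0.51 ± 0.12, limma adjusted p = 0.0527). The transcript of rng3 lies opposite 68.9% of it. After rescaling, neighbouring members had the same sign in 21 of 28 pairs at the left end (75%), in 17 of 32 at the right end (53.1%) and in 473 of 847 in the chromosome III interior (55.8%). These shares are given as a description, and no test was made of them.

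Transport genes were the 1 functional group counted both among the members and elsewhere, and were chosen with earlier results known. Genes whose annotation names a transporter, permease, channel or similar numbered 6 among the members, with a median of 0.67. Of these 4 were called higher (66.7%, beside 11.9% of all genes) and none lower (beside 4.37%). The called ones were SPCC569.05c, SPCC757.13, SPCC757.11c and SPCC613.01. Among 205 tested transport genes elsewhere 36 were higher (17.6%) and 7 lower (3.41%), with a median of 0.23. A set of 6 genes allows no comparison of such shares. The sixth, nic1, a nickel and cobalt transporter of the plasma membrane, had 16.1 and 16.4 FPKM against 16.9 and 15.3 FPKM in wild type. Its log2 difference was 0.01 ± 0.13 (limma adjusted p = 0.951), and -0.12 after rescaling. The transcript of SPCC757.02c lies opposite 61.3% of nic1, and reads in the shared stretch cannot be assigned to 1 of them.

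At the right end, SPCC70.08c and ecl1 followed SPCC569.05c in size. SPCC70.08c (methyltransferase, III:2367804-2368636, minus strand, 2 exons) had 852 and 925 FPKM in the labelled deletion libraries, against 287 and 341 FPKM in wild type, a log2 change of 1.502 ± 0.13 (limma adjusted p = 0.00459). The non-coding SPNCRNA.1292 lies opposite its whole length. That transcript had 199.6 and 212 FPKM against 71.2 and 84.1 FPKM in wild type (1.40 ± 0.12, limma adjusted p = 0.0042). Since the pair moved together and the strand setting is not given, which of them the reads come from cannot be told apart.

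ecl1 (SPCC70.12c) encodes a small protein named for extending chronological lifespan, the time that resting cells stay alive. It had 347 and 345 FPKM in the labelled deletion libraries, against 149.8 and 152 FPKM in wild type, a log2 change of 1.19 ± 0.09 (limma adjusted p = 0.00303). Replicates agreed closely within each group. The deposited transcript spans III:2354974-2358570 on the minus strand, and 77.4% of it lies outside the RefSeq gene at III:2354968-2355787, so the value describes a longer unit than the annotated gene. Its neighbour nnk1, a protein kinase gene, had 51.6 and 48.5 FPKM against 69.5 and 50.2 FPKM in wild type (-0.24 ± 0.18, limma adjusted p = 0.383).

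The other 4 higher genes encode 3 enzymes of metabolism and an uncharacterised protein. hom2 (SPCC1827.06c, III:2386019-2387686, minus strand) encodes aspartate semialdehyde dehydrogenase, an enzyme on the route to methionine and threonine. It had 967 and 1026 FPKM in the labelled deletion libraries, against 626 and 585 FPKM in wild type, a log2 change of 0.72 ± 0.11 (limma adjusted p = 0.0215). pcs60 (SPCC1827.03c), annotated as an acetyl-CoA ligase, had 128 and 118 FPKM against 71.8 and 87.2 FPKM in wild type, a log2 change of 0.63 ± 0.13 (limma adjusted p = 0.0381). Both lie at the right end, and the next gene at the left. SPCC757.05c, a peptidase of a family that takes part in glutathione breakdown, had 37.7 and 36.0 FPKM against 24.96 and 19.7 FPKM in wild type, a log2 change of 0.70 ± 0.15 (limma adjusted p = 0.0417). SPCC70.10, whose product is uncharacterised, had 96.8 and 109 FPKM against 67.5 and 76.1 FPKM in wild type, a log2 change of 0.52 ± 0.12 (limma adjusted p = 0.0461). The groups did not overlap in any of these 4, which were picked by calls on the same values. All 4 missed the threshold after rescaling, with differences of 0.58, 0.49, 0.57 and 0.38 and limma adjusted p-values of 0.0546, 0.0931, 0.0534 and 0.138 in the order given. SPCC70.10 is overlapped over 37.1% of its length by pof7, an F-box gene on the opposite strand with no call (-0.19 ± 0.14, limma adjusted p = 0.374).

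Other enzyme genes of the ends did not pass. are2, which encodes an enzyme that stores sterols as esters, had 62.5 and 59.96 FPKM in the labelled deletion libraries, against 52.3 and 39.2 FPKM in wild type (0.43 ± 0.16, limma adjusted p = 0.13). pcy1, an enzyme gene of phosphatidylcholine synthesis, had 89.4 and 90.9 FPKM against 90.9 and 73.1 FPKM in wild type, with overlapping groups. tmp1, a thymidylate kinase gene needed for DNA building blocks, had 42.3 and 39.4 FPKM against 33.4 and 34.01 FPKM in wild type (0.27 ± 0.11, limma adjusted p = 0.142). SPCC757.02c, annotated as an epimerase, had 66.9 and 59.9 FPKM against 107 and 72.3 FPKM in wild type (-0.47 ± 0.20, limma adjusted p = 0.171). The transcript of nic1 lies opposite its whole length.

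Of the mitochondrial members 1 fell. cox14 (SPCC757.15, III:59097-61018, minus strand, 3 exons), which encodes an assembly factor of cytochrome c oxidase, had 39.9 and 35.5 FPKM in the labelled deletion libraries, against 53.4 and 57.2 FPKM in wild type. Its log2 change was -0.54 ± 0.11 (limma adjusted p = 0.0396). The non-coding SPNCRNA.453 lies opposite 73.6% of it, with under 2 FPKM in every library. qcr2, a core subunit gene of the respiratory chain's cytochrome bc complex, had 307 and 295 FPKM against 344 and 283 FPKM in wild type, with overlapping groups (-0.05 ± 0.13, limma adjusted p = 0.79).

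The word ATGACGT, a site bound by the stress transcription factor Atf1, was found on either strand in the 250 bases before 3 of 62 end genes (4.84%) and before 75 of 5105 protein-coding genes (1.47%). A count of 3 genes allows no comparison of such shares. The 3 genes are SPCC1884.01, cox14 and SPCC569.03, of which the last 2 were called lower. Each of those calls held in 5 of 8 alternatives with 4 libraries. The sites are shown with 10 bases on each side (ASM294v3, III:36945-36971 plus strand, III:60916-60942 minus strand and III:2431508-2431534 minus strand), each read in the direction of its gene with the word in capitals. Before cox14 it stands on the opposite strand and is shown as its complement.
SPCC1884.01: accaagcgaaATGACGTctaaggaaaa
cox14: attttaaagaACGTCATggtacagctc
SPCC569.03: ttgattaaaaATGACGTcaaacgagaa
They begin 17, 65 and 73 bases before the annotated starts. A match says only that these letters are present. atf1 itself had 83.8 and 95.3 FPKM in the labelled deletion libraries, against 132.6 and 85.2 FPKM in wild type, with overlapping groups. Of 14 core stress response genes 4 were called higher (28.6%, beside 11.9% of all genes; pyp2, srx1, hsp104 and tpx1) and 1 lower (7.14%, beside 4.37%; hsp16). After rescaling 3 were higher (21.4%, beside 6.78% of all genes) and none lower (beside 5.11%).

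Of the 5 most abundant end genes SPCC569.09 was the only one called, and the other 4 encode ribosomal proteins or a detoxifying enzyme. rpl35 had 3009 and 3033 FPKM in the labelled deletion libraries, against 3681 and 4207 FPKM in wild type (-0.38 ± 0.18, limma adjusted p = 0.198). rpl902 had 1043 and 1173 FPKM against 1335 and 1633 FPKM in wild type (-0.42 ± 0.16, limma adjusted p = 0.138). rpp103 had 840.0 and 850.0 FPKM against 1068 and 1256 FPKM in wild type (-0.45 ± 0.14, limma adjusted p = 0.0821). For each of these 3 ribosomal protein genes both labelled deletion libraries lay below both wild-type libraries, as in 21.6% of all genes. Yet rpl35 stood at 0.00 after quantile normalization. hsp3101, which encodes a glyoxylase that clears methylglyoxal, had 1095 and 1236 FPKM against 2111 and 1392 FPKM in wild type (-0.56 ± 0.23, limma adjusted p = 0.159).

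Genes for making ribosomes and processing RNA gave no call. nsa2, a ribosome assembly factor gene, had 248 and 227 FPKM in the labelled deletion libraries, against 235 and 206 FPKM in wild type. The other genes of this kind were utp25 (0.16), puf6 (0.40), bcd1 (0.33), SPCC1827.05c (0.20), rrp45 of the RNA exosome (0.10), sen54 of the tRNA splicing enzyme (0.02) and the splicing factor gene cwf18 (0.17), as log2 differences. None of the 8 passed, with limma adjusted p-values between 0.155 and 0.917. rnc1, which encodes an RNA-binding protein that steadies messenger RNA, had 91.5 and 91.9 FPKM in the labelled deletion libraries, against 97.1 and 87.2 FPKM in wild type (limma adjusted p = 0.979).

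Genes named for meiotic expression also did not pass. meu23 had 9.67 and 8.32 FPKM in the labelled deletion libraries, against 5.74 and 4.16 FPKM in wild type (0.76 ± 0.22, limma adjusted p = 0.0777). mug170, which encodes an arrestin-like adaptor, had 15.9 and 13.2 FPKM against 11.9 and 7.50 FPKM in wild type (0.57 ± 0.25, limma adjusted p = 0.178). mug9 had 8.25 and 9.18 FPKM against 11.1 and 9.97 FPKM in wild type (-0.25 ± 0.16, limma adjusted p = 0.331). The groups did not overlap in any of them, with meu23 and mug170 higher and mug9 lower. The same holds for 44.7% of all genes in the higher direction and 21.6% in the lower. SPCC757.06, whose product is uncharacterised, differed by 1.14 ± 0.41 (4.62 and 5.05 FPKM against 0.822 and 2.86 FPKM in wild type) and missed the threshold (limma adjusted p = 0.121).

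Genes of various other annotated roles completed the set, with differences on both sides of 0. The cell shape gene pal1 differed by 0.39 ± 0.13 (limma adjusted p = 0.101) and apl4, a subunit gene of the AP-1 adaptor of membrane traffic, by 0.24 ± 0.15 (limma adjusted p = 0.312). SPCC757.04, annotated as a transcription factor, had 61.7 and 61.1 FPKM in the labelled deletion libraries, against 49.1 and 41.2 FPKM in wild type (0.44 ± 0.12, limma adjusted p = 0.0705). The remaining 7, which are spx2, vms1, dhm1, ppk38, sac32, SPCC613.08 and rng3, lay between -0.38 for rng3 and 0.20 for spx2, and none was called.

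Other annotated transcripts in the same windows numbered 47, of which 36 were tested, 4 were called higher and 4 lower (11.1% each, beside 11.9% and 4.37% of all genes). They include 11 ribosomal RNA transcripts outside the outermost protein-coding genes. The 3 long ribosomal RNA units SPRRNA.47, SPRRNA.48 and SPRRNA.49 were listed at 2192 to 3697 FPKM in 3 libraries and at 0 in wild-type replicate 2, while the other ribosomal RNA transcripts were not at 0 in that library. A listed 0 for such RNA can be a failed estimate, so no comparison of ribosomal RNA was made.

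Shares of called genes in the outer 100 kb of the other chromosomes are given beside those of chromosome III as a description, with no test. At the ends of chromosome I 29 of 56 tested genes were higher (51.8%) and 7 lower (12.5%), with a median log2 fold change of 0.95. At the ends of chromosome II 16 of 49 were higher (32.7%) and 10 lower (20.4%), with a median of 0.58. In the chromosome III interior 91 of 848 were higher (10.7%) and 31 lower (3.66%), with a median of 0.15. Repeated sequence differed as well. Among tested genes, 3 of 62 at the chromosome III ends share over 10% of their sequence with another place. The counts were 26 of 56 at the ends of chromosome I and 26 of 49 at the ends of chromosome II. Untested genes were not counted here. What part repeated sequence has in the shares of called genes was not tested.

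**Figure D4:**
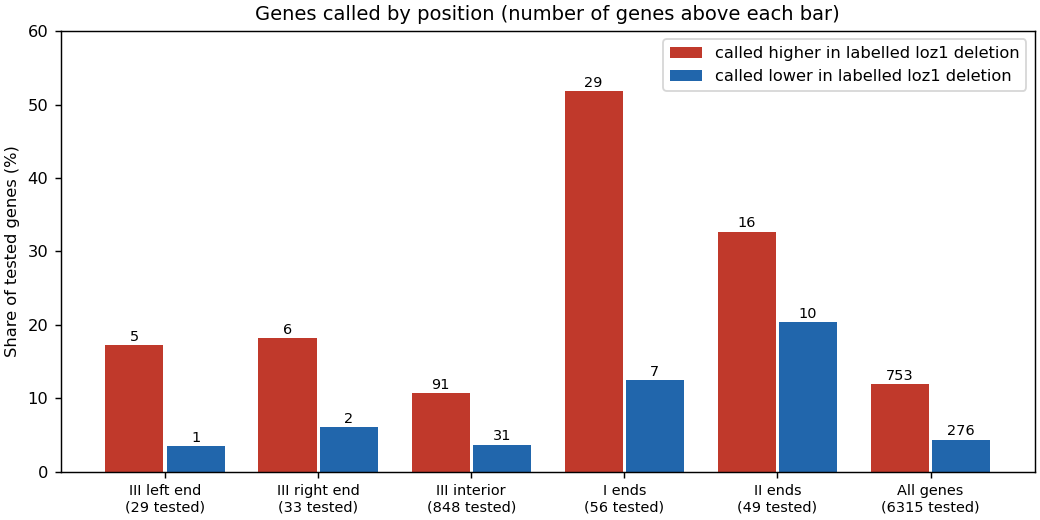
Share of tested genes (%) called higher or lower in the libraries labelled loz1 deletion than in wild type at the left and right end of chromosome III, in its interior, at the ends of chromosomes I and II, and over all genes. The number of called genes stands above each bar. Both chromosome III ends, at 17.2% and 18.2% higher, lie nearer to the interior than to the ends of chromosome I.

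By distance, negative differences made up most of the outermost 40 kb. At the left end all 5 genes within 40 kb had negative differences, with a median of -0.36 and no call. Of 8 tested right genes within 40 kb 5 were negative, with a median of -0.26, 1 call higher and 2 lower. From 40 to 60 kb the medians were 0.01 at the left end (1 of 7 higher, 1 lower) and 0.21 at the right end (no call among 10). From 60 to 80 kb they were 0.47 at the left end (3 of 6 higher) and 0.18 at the right end (2 of 8 higher). From 80 to 100 kb they were 0.05 at the left end (1 of 11 higher) and 0.27 at the right end (3 of 7 higher), with no lower call from 60 kb on. Over all genes 11.9% were called higher and 4.37% lower, and bins of 5 to 11 genes allow no comparison of such shares. Except for SPCP20C8.01c the 5 left genes had under 6 FPKM in every library, and their groups overlapped in 2 of 5. Without wild-type replicate 2 the signs of SPCP20C8.02c and SPCP20C8.03 reversed (0.27 and 0.21). new22 rested on 1, 0, 1 and 3 fragments. The copies SPCP20C8.01c and SPCC569.01c, whose reads cannot be assigned to 1 place, were counted as separate genes.

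Genes for factors that act at chromosome ends or ribosomal DNA were counted as well. Of 22 genes for heterochromatin and chromosome-end proteins 1 was called higher (4.55%, beside 11.9% of all genes) and none lower. It was sir2, a histone deacetylase gene, with 28.3 and 25.8 FPKM in the labelled deletion libraries, against 18.9 and 16.5 FPKM in wild type (0.59 ± 0.14, limma adjusted p = 0.0482). Of 7 genes for ribosomal DNA transcription or binding 1 (14.3%), spp27, was called higher and none lower, with 70.07 and 70.11 FPKM against 51.8 and 49.99 FPKM in wild type (0.45 ± 0.09, limma adjusted p = 0.0378). After rescaling neither list held a called gene, beside 6.78% of all genes called higher and 5.11% lower. Of 8 zinc genes 4 were higher (50%, beside 11.9% of all genes), loz1 itself among them, and 1 was lower (12.5%, beside 4.37%). After rescaling 3 were higher (37.5%, beside 6.78% of all genes) and 1 lower (12.5%, beside 5.11%).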

How the data were processed

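RNA abundance was measured in 4 libraries. The authors deposited, per the file headers and attribute names, 1 FPKM value per annotated transcript with its bounds, written by Cufflinks and not pooled over replicates. The build was ASM294v2 and the tools were Cuffdiff, Cufflinks, HISAT2 and SAMtools, per the submitters' processing notes. Not given in the sources used here are their versions, the strand setting and the treatment of reads with several matches. FPKM is not a count, so no count model was used.

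Members, gene lists and tests were chosen with earlier results of these data known. FPKM was summed per gene. Those averaging 1 FPKM or more with a transcript of at least 200 nt were compared on log2(FPKM + 1) by limma 3.58.1 (R 4.3.3; moderated statistics with an intensity trend, 4 libraries, no covariate), as 6315 genes, and the script was tested on simulated data. The pseudocount of 1 understates the change of low genes. Named were all called members, the 5 nearest each end, the 8 uncalled members with the largest difference averaging 5 FPKM or more, the 5 most abundant and transcripts over at least 20% of a called member. Further members were described after their values were seen, grouped by annotated role.

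Names, promoters and gene sequences are RefSeq's (ASM294v3), which has the same length of chromosome III, holds 98% of 5330 introns of the files and matched all 63 members. Promoter coordinates are of that build, and transcript coordinates are the files'. Copies were aligned with blastn 2.17.0+. Depth was inferred from the bounds, and the precision it gives covers counting error only. Alternatives were other pseudocounts (0.1 and 5), filters (none, 5 FPKM), rescalings, the prior, a replicate block and leaving out each library.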

Additional observations from a re-analysis of the deposited data

How the results depend on the processing

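Counts of called genes moved with the processing more than directions did. Over 30 named members and 12 alternatives, 279 values stayed on the same side of the threshold in the same direction, 51 lost and 23 gained a call, and 3 reversed. The reversals were SPCP20C8.02c at 0.27 and SPCP20C8.03 at 0.21 without wild-type replicate 2 (ranges of -1.08 to 0.27 and -0.62 to 0.21 with a library left out), and rpl35 at 0.00 with quantile normalization. Over all genes, higher calls numbered 462 with no filter on low values, 428 with median-ratio rescaling and 410 with quantile normalization, and lower calls 161 with no filter, against 753 and 276. Leaving out 1 library gave 73 to 2115 higher and 40 to 880 lower genes. Rescaled lower calls were 323 and quantile-normalized ones 316, so that the split between higher and lower calls depends on the scaling.

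At the left end of chromosome III the higher count of 5 was 1 with no filter and 0 to 11 with a library left out. The lower count of 1 was 0 with no filter, with a prior without a trend and with the replicate block, and 0 to 5 with a library left out. At the right end the higher count of 6 was 3 with rescaling and 0 to 14 with a library left out. The lower count of 2 was 1 with pseudocount 0.1, with no filter and with a prior without a trend, and 0 to 6 with a library left out. A fit without 1 library rests its spread on the other pair, like which the lone library is assumed to vary, and the wild-type pair differed more (0.24 against 0.09). Of the 14 calls, 5 held in all 8 alternatives with 4 libraries (SPCC569.05c, SPCC569.09, SPCC70.08c, ecl1 and SPCC757.11c). The cause of the other changes was not tested.

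Replicate numbers did not pair the libraries (the correlation of the replicate differences of both groups was -0.01). With the replicate block 538 genes were higher and 224 lower, of which 5 and 0 at the left end and 5 and 2 at the right end, and 11 of 14 member calls stayed. Depth limits new22 and the other left members under 5 FPKM.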
